A study of Bos taurus with 8 samples.

Results

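Described here are 8 genes of the glucocorticoid response, FKBP5, GLUL, TSC22D3, PER1, ZBTB16, NR3C1, KLF9 and PDK4, of the 21880 genes counted in single cells of bovine muscle and of the cultures grown from it. They were chosen by symbol, with their levels per cell type and timepoint and in calves and adults at Timepoint 1 already known, so those levels are given as a description and without a test. Each symbol stands for 1 row of the gene table, and over all cells the members were counted with between 3417 (PDK4) and 221928 (FKBP5) unique molecular identifiers (UMIs).

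Cells were freed with collagenase from the semitendinosus muscle of 10 Belgian Blue cattle, of which 5 were calves (donors 2, 4, 5, 7 and 10) and 5 were adults (donors 1, 3, 6, 8 and 9). Timepoint 1 was unsorted muscle cells of all 10 donors, and Timepoint 2 was primary cells (passage 0) that had spent 72 h in a serum-free medium, from every donor except donor 3. The methods describe the cells of Timepoint 2 as unsorted, whereas its labels list satellite cells (SCs) and FAPs, the fibro-adipogenic progenitors, beside unsorted cells, and the methods were followed. Timepoints 3, 4 and 5 were passages 2, 5 and 8 of unsorted cultures (donors 1, 2 and 9), of cultures sorted for SCs (donors 5, 6 and 10) and of cultures sorted for FAPs (donors 4, 7 and 8). By the methods their vessels were coated with fibronectin, laminin and collagen I, respectively, and all were kept in the same serum-free medium. The study lists the composition of this medium in material that was not analysed here, so whether it held a glucocorticoid is not known here, and no hormone level of the animals was analysed.

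Glucocorticoids such as cortisol enter the cell and bind the glucocorticoid receptor, which is held in the cytoplasm by heat shock protein chaperones until the hormone arrives. The bound receptor moves to the nucleus, where it raises the transcription of a set of target genes and lowers that of many inflammatory genes. Skeletal muscle is a major target of these hormones, which shift it towards the release of amino acids and the burning of fat. Of the members, NR3C1 encodes the receptor itself, FKBP5 a co-chaperone that lowers the hormone affinity of the receptor, and TSC22D3 (GILZ) a leucine zipper protein that restrains inflammatory signalling. ZBTB16 (PLZF) and KLF9 are zinc finger transcription factors, PER1 is a repressor of the circadian clock, GLUL is glutamine synthetase, and PDK4 is the kinase that switches off pyruvate dehydrogenase and so spares glucose.

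Levels are UMIs of a gene per 1000000 UMIs (CPM) of all cells of 1 type of 1 donor at 1 timepoint, for sums of at least 10 cells, and are given as the mean ± SD over donors. Across Timepoints 1 to 5, 4395, 9591, 8966, 10405 and 2772 cells carried a median of between 4184 (Timepoint 1) and 27239.5 UMIs (Timepoint 3). Each timepoint was 1 library of pooled donors, so the effect of the timepoint and that of the library cannot be told apart, whereas donors and cell types of 1 timepoint shared a library. Of the barcode sequences 129 were used in more than 1 library. The deposited type labels went with their markers: each type had most of its markers at their highest level, apart from FAPs at Timepoint 1, where this held for PDGFRA and LUM but not for DCN and PDGFRB. In culture, SCs pooled over donors also held FAP markers. At Timepoint 2 LUM was 270 CPM in SCs and 355 CPM in FAPs, DCN 1139 and 2867 CPM, and PDGFRA 61.4 and 282 CPM. The source of these UMIs and their part in the SC levels were not tested.

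UMIs of the receptor gene NR3C1 were counted in every cell type of muscle, from 5 UMIs in 12 glial cells upwards, and its level was lower in culture in FAPs, SCs and VECs. UMIs of the fibre gene ACTA1 were counted in each type too, at 98.6 to 638 CPM outside myocytes, and the part of free RNA in the NR3C1 levels was not tested. At Timepoint 1 it was 250 ± 60.5 CPM in FAPs, 220 ± 51.4 CPM in SCs and 190 ± 43.4 CPM in vascular endothelial cells (VECs; 10 donors each). Among types with at least 4 donors its mean ranged from 136 ± 47.9 CPM in lymphocytes to 331 ± 79.8 CPM in lymphatic endothelial cells (LECs; 4 donors), and the ranges of neighbouring types in this order overlapped. At Timepoint 2 it was 68.9 ± 9.23 CPM in FAPs, 87.7 ± 12.1 CPM in SCs and 38.3 ± 9.25 CPM in VECs (9 donors each). All donors were below every Timepoint 1 value of the same type, with log2 fold changes (log2FC) of -1.76 ± 0.14, -1.39 ± 0.13 and -2.29 ± 0.14 (± SE here and below). From passage 2 to passage 8 NR3C1 stayed at means between 63.6 and 77.8 CPM in FAPs and SCs. Here and below, means at passages 2, 5 and 8 pool the cultures unless a culture is named. They cover 8, 9 and 9 donors in FAPs and 9, 7 and 4 donors in SCs, so the mix of cultures changes. At passage 8 the SC sums held 12 to 54 cells.

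FKBP5 was the member whose mean was not lower after 72 h of culture in any of these types. At Timepoint 1 it was 288 ± 231 CPM in FAPs, 238 ± 174 CPM in SCs, 65.5 ± 55.2 CPM in VECs, 93.2 ± 76.6 CPM in smooth muscle and mesenchymal cells (SMMCs) and 334 ± 289 CPM in monocytes and macrophages (10 donors each). At Timepoint 2 the same types held 309 ± 48.5, 593 ± 82.5 and 118 ± 10.1 CPM (9 donors each), 186 ± 18.6 and 587 ± 47.9 CPM (7 donors each). In SCs all 9 donors were higher at Timepoint 2, and the values of 438 to 700 CPM fell short of the highest Timepoint 1 value of 471 CPM only in donor 4. In FAPs 6 of 9 donors were higher and 3 lower, and the log2FC was 0.29 in FAPs, 1.34 in SCs and 0.89 in VECs. The means of the age classes of FAPs moved in opposite directions. Calves went from 87.1 ± 75.0 to 311 ± 65.6 CPM (5 donors each). Adults went from 489 ± 116 (5 donors) to 307 ± 22.8 CPM (4 donors, without donor 3). Every calf was higher at Timepoint 2, and so was adult donor 9. With further passages FKBP5 was 268 ± 43.4, 207 ± 37.7 and 198 ± 62.4 CPM in FAPs and 366 ± 68.1, 303 ± 84.2 and 242 ± 69.5 CPM in SCs at passages 2, 5 and 8, and the ranges of adjacent passages overlapped.

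The 4 transcription regulators were mostly lower in culture, in differing degree. TSC22D3 was highest in the blood-borne cells of muscle, at 743 ± 267 CPM in lymphocytes (10 donors), and the pooled neutrophils, 51 cells of 9 donors with 23 cells from donor 4, gave 1833 CPM (exact Poisson 95% interval 1575 to 2120, counting error only). In FAPs it was 366 ± 253 CPM at Timepoint 1 and 49.8 ± 3.90 CPM at Timepoint 2, in SCs 350 ± 178 and 113 ± 24.8 CPM, and in VECs 116 ± 55.9 and 22.3 ± 5.62 CPM. It was lower in all 9 shared donors in each of the 3 types (log2FC -2.72, -1.66 and -2.40), with no overlap of the timepoints in FAPs and VECs. At passages 2, 5 and 8 TSC22D3 was 119 ± 33.8, 135 ± 28.0 and 136 ± 22.3 CPM in SCs and 78.3 ± 13.7, 72.0 ± 11.9 and 72.8 ± 16.5 CPM in FAPs. The SC means differed by culture. They were 92.9, 123 and 147 CPM in sorted SC cultures and 151, 161 and 125 CPM in unsorted cultures (3, 3 and 2 donors each).

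ZBTB16 was lowest in monocytes and macrophages among the types with 10 donors at Timepoint 1. Its mean was 96.8 ± 70.2 CPM in FAPs, 77.2 ± 48.4 CPM in SCs, 75.8 ± 73.3 CPM in SMMCs, 67.9 ± 54.3 CPM in VECs and 21.2 ± 15.0 CPM in lymphocytes. Monocytes and macrophages held 1.06 ± 2.45 CPM, with UMIs in donors 4 and 10 alone. LECs of 4 donors gave 24.1 ± 29.6 CPM, and the pooled neutrophils 101.2 CPM from 10 UMIs (interval 48.6 to 186), 8 of them from donor 4. The same neutrophils also held the FAP markers PDGFRA (364 CPM), LUM (364 CPM) and DCN (4708 CPM), whose part in this level was not tested. At Timepoint 2 ZBTB16 was 18.3 ± 5.58 CPM in FAPs, 43.5 ± 13.1 CPM in SCs and 12.9 ± 6.68 CPM in VECs, overlapping Timepoint 1 in each. KLF9 was 34.5 ± 17.8, 31.4 ± 14.0 and 31.3 ± 7.53 CPM in FAPs, SCs and VECs at Timepoint 1 and 2.54 ± 0.589, 6.94 ± 2.04 and 2.18 ± 2.04 CPM at Timepoint 2, with every donor lower and no overlap. PER1 was highest in VECs of muscle, at 62.9 ± 32.2 CPM, and was 6.60 ± 2.00 CPM there at Timepoint 2, again without overlap. In FAPs PER1 was 27.5 ± 13.4 and 15.6 ± 1.92 CPM and in SCs 37.8 ± 28.9 and 15.8 ± 2.16 CPM, and these ranges overlapped.

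Of the metabolic enzymes, PDK4 was far lower in culture in FAPs, SCs and VECs, and GLUL differed by type. In SMMCs PDK4 was lower in 5 of 7 donors and higher in 2, and the timepoints overlapped. PDK4 was 92.0 ± 60.2 CPM in FAPs, 175 ± 78.8 CPM in SCs and 122 ± 93.8 CPM in VECs at Timepoint 1, and 421 CPM in the 45 pooled myocytes (interval 328 to 532). At Timepoint 2 it was 1.76 ± 0.567, 6.02 ± 2.56 and 3.61 ± 2.63 CPM, with log2FC of -5.61, -5.00 and -5.08 and no overlap between the timepoints. It stayed under 3 CPM on average in FAPs and SCs at passages 2, 5 and 8. GLUL was 408 ± 219 CPM in FAPs and 190 ± 49.5 CPM at Timepoint 2 (6 of 9 donors lower), 314 ± 120 and 340 ± 49.9 CPM in SCs (6 of 9 donors higher) and 136 ± 25.0 and 68.0 ± 13.3 CPM in VECs (8 of 9 donors lower). It was then 119 ± 23.6, 81.7 ± 24.2 and 76.8 ± 37.1 CPM in FAPs and 146 ± 66.0, 119 ± 41.4 and 105 ± 30.1 CPM in SCs at passages 2, 5 and 8.

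**Figure D1:**
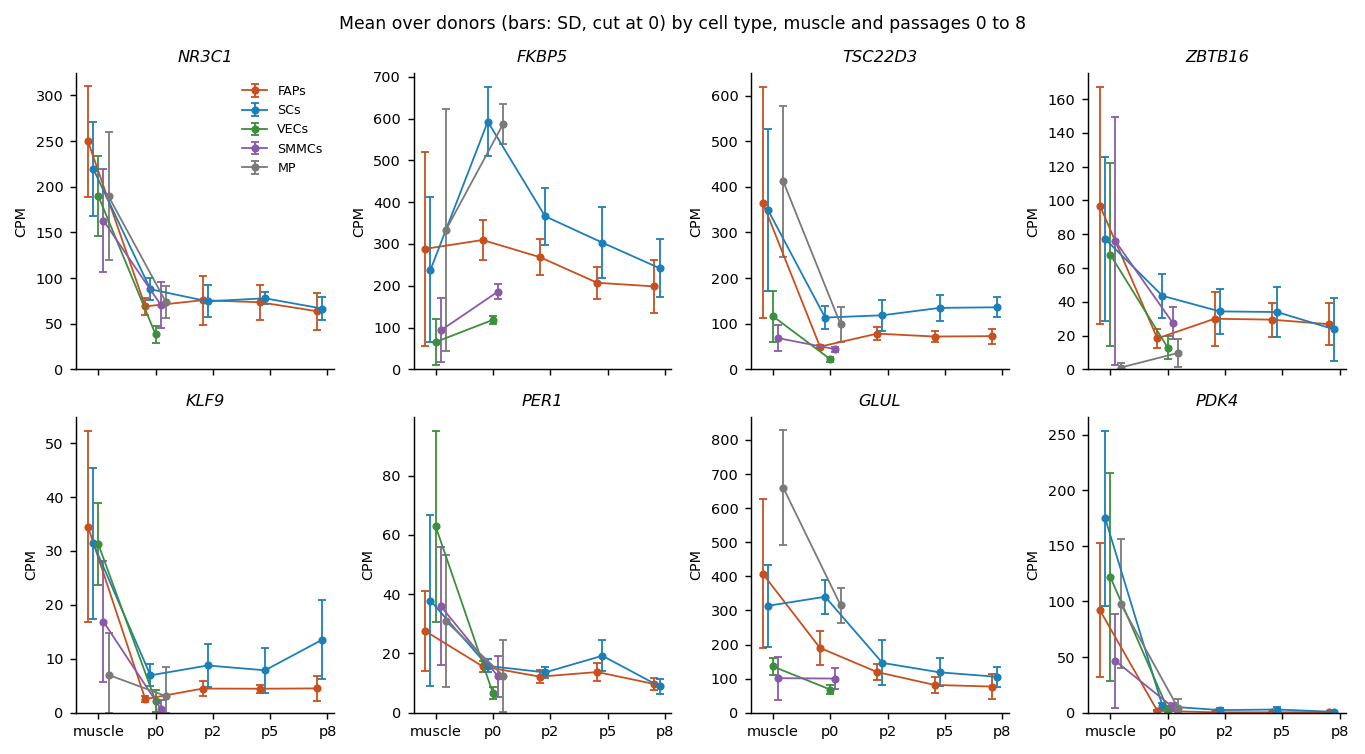
Mean level of each gene (CPM, y axis from 0) in muscle and at passages 0, 2, 5 and 8 (x axis), with 1 line per cell type and bars for the SD over donors; MP are monocytes and macrophages. NR3C1, TSC22D3, KLF9 and PDK4 drop between muscle and passage 0 in FAPs, SCs and VECs, while FKBP5 rises to 593 CPM in SCs and 587 CPM in MP.

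Of the members tested with all other genes, 4 of 8 were lower at Timepoint 2 without overlap in FAPs, against 22.5% of all genes. The same held for 2 of 6 in SCs (16.6%) and 5 of 7 in VECs (16.3%). KLF9 and PER1 in SCs and ZBTB16 in VECs did not pass the filter on low counts of that test. PER1 in SCs and ZBTB16 in VECs, which overlapped between the timepoints, are therefore missing from these counts. The filter keeps a gene that is high at either timepoint alone, so members low at Timepoint 2, as PDK4 and KLF9, could enter only as falls. The median log2FC of the members tested was -1.96, -1.06 and -2.40 in FAPs, SCs and VECs, and that of all genes tested was 0.03, -0.01 and -0.02. As the members were chosen with these levels known, nothing is read from these counts and medians. Genes of muscle fibres and early genes of tissue dissociation differed between the same timepoints. The 11 fibre genes summed to 1038 to 1744 CPM in FAPs of single donors at Timepoint 1 and 1.11 to 2.86 CPM at Timepoint 2, and the 12 dissociation genes to 5444 to 13093 and 850 to 1030 CPM. In SCs these sums were 456 to 1309 and 1.02 to 3.71 CPM for fibre genes and 16007 to 40838 and 889 to 1111 CPM for dissociation genes, and in VECs 417 to 1764 and 0 to 7.19 CPM, and 15684 to 34730 and 730 to 1099 CPM. Their part in the differences between the timepoints was not tested.

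Other genes of the pathway, from lists that do not hold the members, were compared between Timepoints 2 and 1 with edgeR. The lists were chosen with earlier results of these data known, so the counts below are a description. A call needed a log2FC beyond 1 in either direction together with an adjusted p under 0.05. Of all genes tested 22.5% were called lower and 20.9% higher at Timepoint 2 in FAPs, 18.5% and 15.8% in SCs, and 19.6% and 15.6% in VECs. Of 32 other genes that glucocorticoids are known to induce, 19 were tested in FAPs, where 11 fell and none rose. In SCs 9 of 18 fell and 3 rose, and in VECs 10 of 15 fell and none rose. The median log2FC of the genes tested from this list was -1.25, -1.03 and -1.99. The filter on low counts keeps a gene that is high at either timepoint alone. Genes near 0 CPM at Timepoint 2, as PER2 in FAPs (0.589 ± 0.232 CPM), therefore enter these counts and medians only as falls. With the donor as a replicate block, 2 genes of this list rose in FAPs, and thinning every sum to the lowest UMI total left 7 that fell in FAPs and 1 that rose in SCs. Without the filter on low counts 3 rose in FAPs, 5 in SCs and 2 in VECs, and 17 fell in VECs.

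CDKN1C, TXNIP and ZFP36 were among the 4 largest falls of this list in each of the 3 types. CDKN1C, an inhibitor of cyclin-dependent kinases, fell from 495 ± 233 to 2.89 ± 1.04 CPM in FAPs (log2FC -7.30 ± 0.38), and by log2FC of -5.48 in SCs and -6.03 in VECs. TXNIP, which binds thioredoxin and curbs glucose uptake, fell from 2132 ± 934 to 20.2 ± 5.81 CPM in FAPs (-6.60), from 591 ± 267 to 44.5 ± 15.0 CPM in SCs (-3.80) and from 1653 ± 770 to 24.8 ± 12.5 CPM in VECs (-6.11). ZFP36, whose protein destabilizes inflammatory mRNAs, fell in FAPs (-4.85), SCs (-6.38) and VECs (-6.96). The fourth was PER2 in FAPs (-5.33), SESN1 in SCs (-2.15) and the phosphatase gene DUSP1 in VECs (-5.41). The part of tissue dissociation in the falls of this list was not tested. The 3 genes that rose in SCs were MAOA, which encodes an amine oxidase (33.5 ± 18.9 to 100 ± 26.8 CPM, 1.66 ± 0.25), ANXA1, which encodes the anti-inflammatory annexin A1 (392 ± 77.5 to 957 ± 111 CPM, 1.24 ± 0.10), and the kinase gene SGK1 (47.1 ± 24.3 to 107 ± 32.0 CPM, 1.15 ± 0.23), MAOA and ANXA1 without overlap of the timepoints. After thinning to the lowest UMI total ANXA1 still rose (1.16), while MAOA and SGK1 in SCs, SESN1 in SCs and PER2 in FAPs had too few UMIs to be tested.

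Among 13 genes for the receptor's partners, chaperones and hormone-converting enzymes, 10, 8 and 9 were tested in FAPs, SCs and VECs. In FAPs HSP90AB1 (1164 ± 180 to 3352 ± 313 CPM, log2FC 1.64), STIP1 (1.51) and FKBP4 (1.10), all chaperones or co-chaperones, rose. HSD11B1, the enzyme that turns cortisone into active cortisol, fell there from 18.3 ± 7.58 to 4.59 ± 0.733 CPM (-1.92 ± 0.18), as did the coactivator gene NCOA2 (-1.21). NCOA1, another coactivator gene, fell in SCs (-1.42) and VECs (-1.62), and HSP90AB1 rose in VECs (1.10). The other genes tested were not called, for want of the p, of the fold or of both. With the donor as a replicate block 2 receptor genes fell in SCs, and without the filter on low counts 2 rose and 2 fell there. After thinning to the lowest UMI total HSD11B1 and NCOA2 in FAPs had too few UMIs to be tested, and FKBP4 missed the fold (0.78).

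The inflammatory genes that glucocorticoids are known to repress moved in both directions. In FAPs 4 of 7 tested rose and 3 fell, in SCs 2 of 3 rose and 1 fell, and in VECs 3 of 5 rose and 2 fell. Without the filter on low counts 6 rose and 3 fell in SCs and 6 rose in VECs, and with the sums thinned 2 rose in FAPs, 1 rose and 0 fell in SCs and 1 fell in VECs. IL6 rose from 5.02 ± 11.4 to 401 ± 142 CPM in FAPs (log2FC 5.42). In SCs it was called higher at 80.9 ± 26.5 CPM, with a Timepoint 1 mean of 0.413 CPM that came from donor 4 alone. CCL2 rose from 13.1 ± 22.6 to 503 ± 171 CPM in SCs (4.94). CXCL8 rose in FAPs (6.30) and VECs (3.86). MMP1, with 0 UMIs in FAPs at Timepoint 1, was 17.8 ± 9.38 CPM at Timepoint 2, at least 45.8-fold higher for a floor of 3 UMIs over all Timepoint 1 FAPs. The adhesion gene ICAM1 fell in FAPs (-4.55), SCs (-4.51) and VECs (-3.36), VCAM1 fell in FAPs (-4.00), and PTGS2 fell in FAPs (-1.10) and VECs (-2.13). The median log2FC of the 7, 3 and 5 genes tested was 1.42, 4.94 and 1.39 in FAPs, SCs and VECs, where 4.94 is the value of CCL2. The first stayed at 1.42 with MMP1 at its bound. The filter keeps a gene that is high at 1 timepoint. Genes near 0 UMIs at Timepoint 1, as MMP1 in FAPs, therefore enter these counts and medians only as rises. After the same thinning MMP1 and CXCL8 in FAPs, IL6 and ICAM1 in SCs and PTGS2 in VECs had too few UMIs to be tested.

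The members differed widely between donors in muscle, and calves were mostly lower than adults. In FAPs at Timepoint 1 FKBP5 was 52.8, 217, 75.8, 62.3 and 27.1 CPM in calves 2, 4, 5, 7 and 10, and 468, 514, 608, 555 and 303 CPM in adults 1, 3, 6, 8 and 9. The groups did not overlap, and calf 4 came nearest to the adults. The log2FC of calves against adults was -2.43 ± 0.52 for FKBP5, and it was -1.37 ± 0.18 for GLUL (160 to 271 against 430 to 691 CPM) and -1.65 ± 0.39 for TSC22D3 (67.3 to 237 against 251 to 809 CPM), which did not overlap either. These were 3 of 8 members in FAPs, while 4.82% of all genes tested were lower in calves without overlap. No member was lower without overlap in SCs or VECs, against 0.385% and 1.81% of all genes. As the members were chosen with these values known, nothing is read from the counts.

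ZBTB16 overlapped between the age classes in FAPs, calf 4 lying above adult 9. It was 22.6, 46.7, 24.1 and 15.6 CPM in calves 2, 5, 7 and 10 and 139 CPM in calf 4, and 169, 177, 165, 160 and 48.4 CPM in adults 1, 3, 6, 8 and 9. NR3C1 ran the other way in FAPs, at 264 to 317 CPM in calves and 143 to 274 CPM in adults (log2FC 0.65 ± 0.15), with the lowest value in adult 6. PER1, KLF9 and PDK4 overlapped in FAPs, with log2FC of -0.30 ± 0.41, -0.59 ± 0.40 and -0.18 ± 0.60. In SCs and VECs the log2FC of FKBP5 was -1.87 ± 0.60 and -1.15 ± 0.62, and that of 6 of the other 7 members was below 0 in SCs and 5 of 7 in VECs. NR3C1 was above 0 in both (0.36 ± 0.20 and 0.046 ± 0.20), and PDK4 was 171 ± 99.2 CPM in calves and 72.8 ± 62.6 CPM in adults in VECs.

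**Figure D2:**
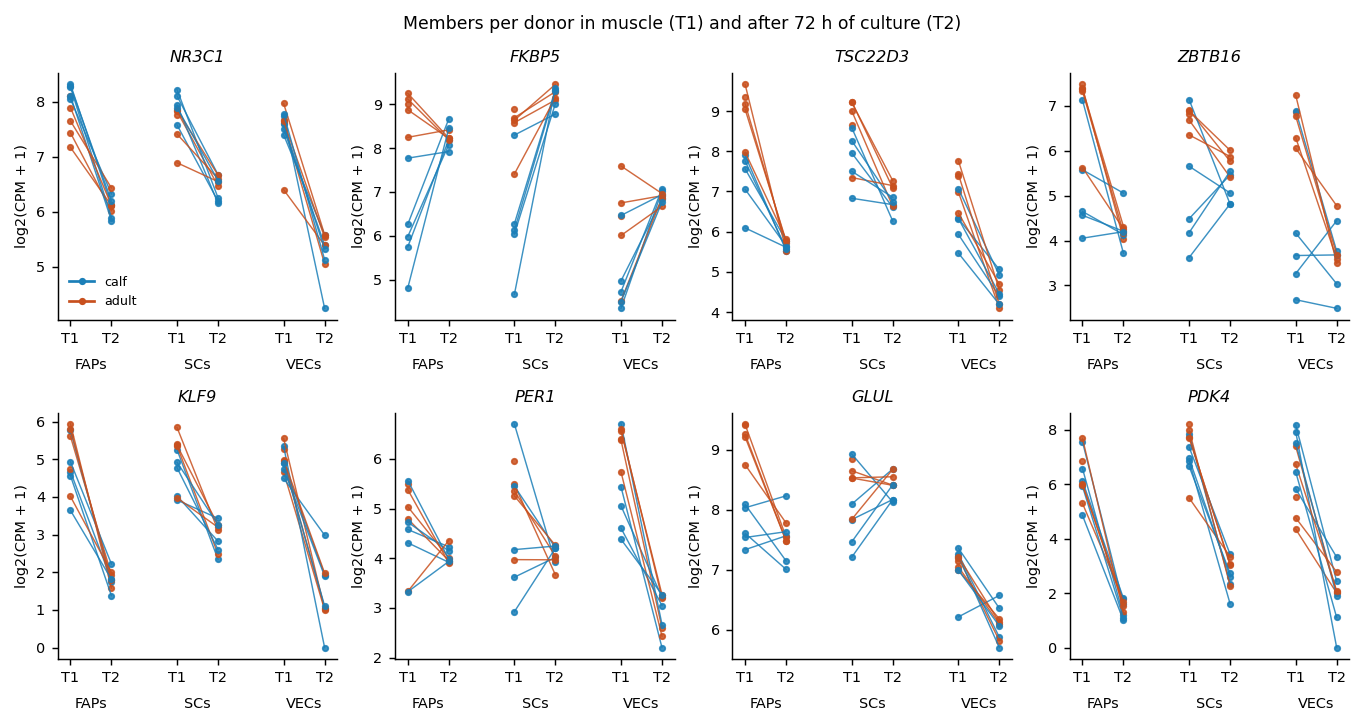
Level of each gene per donor on a log2(CPM + 1) axis at Timepoint 1 (T1, muscle) and Timepoint 2 (T2, passage 0) in FAPs, SCs and VECs; each point is 1 donor, lines join the same donor, and colours mark calves and adults. FKBP5 of FAPs spans 27.1 to 608 CPM at T1 and 241 to 405 CPM at T2, where calves and adults intermingle.

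Whether a donor that was high in 1 cell type was also high in another was examined over the 10 donors of Timepoint 1, for each member and each pair of FAPs, SCs and VECs. Pearson's r of log2(CPM + 1) was positive in all 24 cases, but 6 of them, of GLUL, NR3C1, KLF9 or PDK4 with VECs, turned negative without the 2 donors farthest from the median. Over the 3 pairs it ran from 0.79 to 0.97 for FKBP5, from 0.80 to 0.95 for TSC22D3 and from 0.87 to 0.95 for ZBTB16. FKBP5 of muscle fell into 4 calves (2, 5, 7 and 10) below the other 6 donors in FAPs and SCs, so its r spans a gap between them. These r hold the difference between calves and adults with which the members were chosen, and are given without a p.

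The test was made on values centred on the mean of their age class, which take that difference out. Of the 24 tests 8 passed an adjusted p of 0.05 (exact permutation within age classes, 2-sided, Benjamini-Hochberg over the 24). FKBP5 passed in all 3 pairs, with r of 0.98, 0.75 and 0.76 for FAPs with SCs, FAPs with VECs and SCs with VECs (rho 0.90, 0.77 and 0.85, adjusted exact permutation p = 0.00875, 0.03 and 0.0396). PER1 passed for FAPs with VECs (r = 0.76, rho = 0.61, adjusted exact permutation p = 0.0357) and SCs with VECs (r = 0.87, rho = 0.75, 0.0353). GLUL passed for FAPs with SCs (r = 0.90, rho = 0.94, adjusted exact permutation p = 0.00583). TSC22D3 (r = 0.91, rho = 0.87, adjusted exact permutation p = 0.00583) and ZBTB16 (r = 0.90, rho = 0.83, 0.00875) passed for FAPs with VECs. Before adjustment the exact permutation p of these 8 tests ran from 0.000417 to 0.0132 for r and from 0.00125 to 0.0693 for rho.

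NR3C1, KLF9 and PDK4 passed in no pair, with centred r from -0.042 to 0.64. A centred r of at least 0.666 was reached by 4, 4 and 5 of the 8 members in FAPs with SCs, FAPs with VECs and SCs with VECs, and by 6.49%, 5.76% and 5.07% of all genes over 10 CPM in both types. Without the 2 donors farthest from the median, the centred r of the 8 that passed lay between 0.68 and 0.89. How many passed depended on single donors, which were left out in turn after the values were seen. Without donor 9 none of the 24 passed (7 had an unadjusted exact permutation p below 0.05), without donor 4 there were 2 and without donor 5 there were 4, while the other donors gave 6 to 11. The centred r of the 8 stayed between 0.58 and 0.99 throughout.

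**Figure D3:**
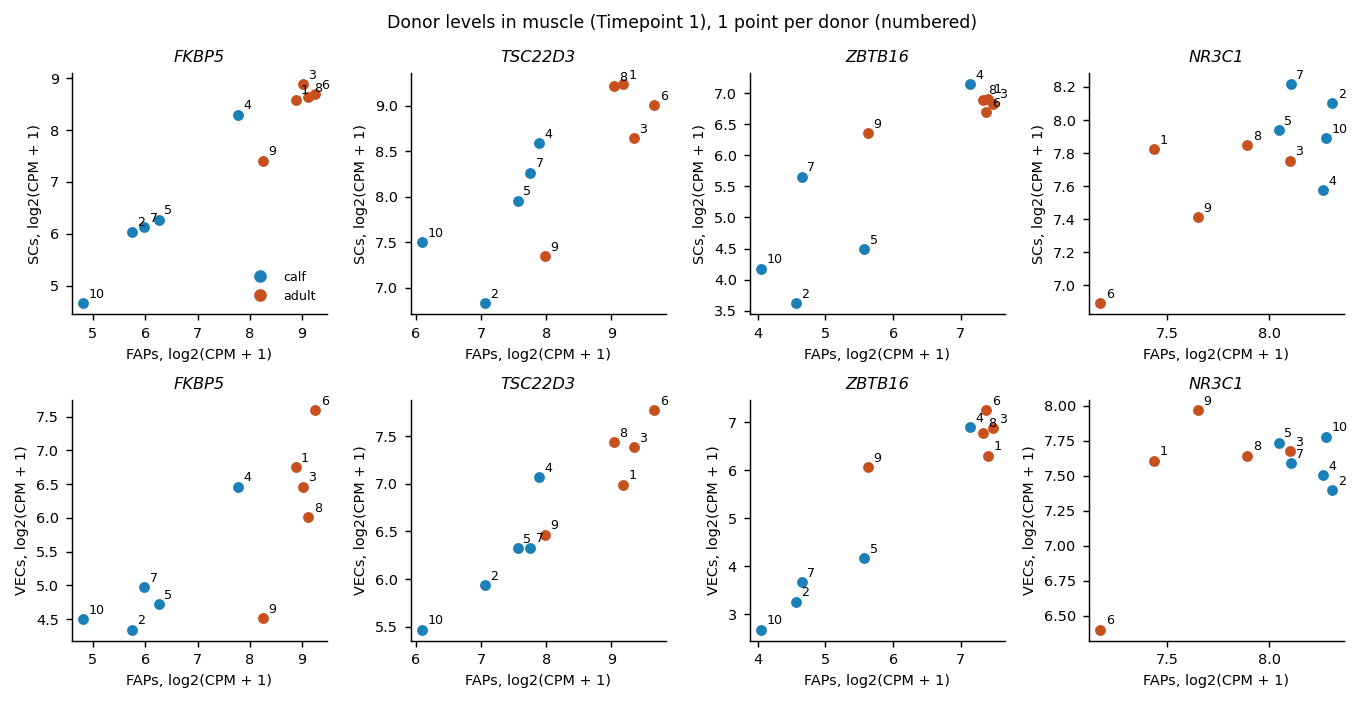
Level of 4 genes in FAPs (x axis) against SCs (upper row) and VECs (lower row) at Timepoint 1, all log2(CPM + 1); each numbered point is 1 donor, coloured as calf or adult. The r of FKBP5, TSC22D3 and ZBTB16 lie between 0.79 and 0.97, and that of NR3C1 with SCs falls to 0.37 without donor 6.

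Within a cell type, FKBP5 was set against the other 7 members, the summed dissociation and fibre genes and the UMIs per cell, in 30 tests chosen after the values were seen and made on values centred on the age class in the same way. In FAPs it went with ZBTB16 (r = 0.93, rho = 0.79, adjusted exact permutation p = 0.0238), KLF9 (r = 0.84, rho = 0.88, 0.0238), PER1 (r = 0.83, rho = 0.71, 0.0238), TSC22D3 (r = 0.80, rho = 0.79, 0.0238) and GLUL (r = 0.74, rho = 0.83, 0.0468). In SCs it went with GLUL (r = 0.87, rho = 0.83, adjusted exact permutation p = 0.0391) and PDK4 (r = 0.70, rho = 0.93, 0.0238), and in VECs with TSC22D3 (r = 0.84, rho = 0.81, 0.0238) and ZBTB16 (r = 0.72, rho = 0.82, 0.0238). Before adjustment the exact permutation p of these 9 ran from 0.00146 to 0.014 for r and from 0.00146 to 0.0325 for rho. Without the 2 farthest donors r was 0.80 to 0.92 in FAPs and 0.82 and 0.96 in SCs, but 0.46 and 0.41 in VECs, where the relation rests on those donors. NR3C1 gave r of -0.063, -0.21 and -0.66 in FAPs, SCs and VECs (adjusted exact permutation p = 0.833, 0.573 and 0.198). An r of at least 0.666 with FKBP5 was reached by 6, 4 and 3 of the other 7 members, and by 3.62%, 2.69% and 2.55% of all genes over 10 CPM in the type.

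The technical measures did not pass in these tests. FKBP5 gave centred r of 0.59, 0.50 and 0.32 with the dissociation genes in FAPs, SCs and VECs (rho 0.41, 0.43 and 0.30, adjusted exact permutation p = 0.198, 0.324 and 0.455), and -0.24, 0.64 and 0.14 without the 2 farthest donors. With the fibre genes r was 0.069, -0.28 and -0.019 (rho -0.018, -0.52 and 0.018, adjusted exact permutation p = 0.866, 0.507 and 0.957), and -0.38, -0.15 and -0.012 without the 2 farthest donors. With UMIs per cell it was -0.46, -0.58 and 0.24 (rho -0.12, -0.45 and 0.15, adjusted exact permutation p = 0.346, 0.198 and 0.577), and 0.42, -0.041 and 0.64 without the 2 farthest donors, so the sign in FAPs rests on those donors. The part of these measures in the relations between members was not tested.

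After 72 h of culture the spread between donors was smaller. Over the 9 donors of both timepoints, the highest FKBP5 of FAPs was 22.4-fold above the lowest at Timepoint 1 and 1.68-fold at Timepoint 2. In SCs the ratio went from 16.9 to 1.60 and in VECs from 9.93 to 1.32. The SD of log2(CPM + 1) of FKBP5 was 1.66, 1.47 and 1.19 at Timepoint 1 and 0.22, 0.21 and 0.12 at Timepoint 2 in FAPs, SCs and VECs. Counting alone would give 0.17, 0.27 and 0.40 at Timepoint 1 and 0.022, 0.034 and 0.14 at Timepoint 2, so that at this depth no spread of FKBP5 beyond counting was detectable in VECs of Timepoint 2.

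As the members were chosen with the levels of calves and adults at Timepoint 1 known, the SD was also taken within age classes, as a description. It was 0.86, 1.06 and 1.07 for FKBP5 at Timepoint 1 and 0.23, 0.22 and 0.13 at Timepoint 2 in FAPs, SCs and VECs. For TSC22D3 it went from 0.72 to 0.11, 0.79 to 0.25 and 0.58 to 0.34, and for ZBTB16 from 1.08 to 0.38, 1.07 to 0.31 and 1.28 to 0.69. GLUL in FAPs (0.31 to 0.38) and KLF9 in VECs (0.34 to 0.89, at a mean of 2.18 CPM) were not narrower at Timepoint 2. The typical gene narrowed too, from a median of 0.34 to 0.13 in FAPs, 0.49 to 0.18 in SCs and 0.42 to 0.28 in VECs over all genes above 10 CPM, with far more UMIs per donor at Timepoint 2. Against these genes FKBP5 went down in rank: its SD was larger than that of 97.8%, 89.0% and 94.2% of them at Timepoint 1 and of 87.0%, 67.2% and 8.84% at Timepoint 2. TSC22D3 in FAPs went from 94.9% to 36.0%. ZBTB16 lay between 87.2% and 99.2% in every type and timepoint, whereas KLF9 (73.2% to 94.8%) and PDK4 (83.1% to 98.3%) in SCs and GLUL in FAPs (43.8% to 96.3%) went up in rank. In SCs of Timepoint 2 KLF9 and PDK4 were at 6.94 and 6.02 CPM, below the genes ranked against. Counting alone would give them an SD of 0.30 and 0.33 there, of 0.42 and 0.58 within age classes.

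**Figure D4:**
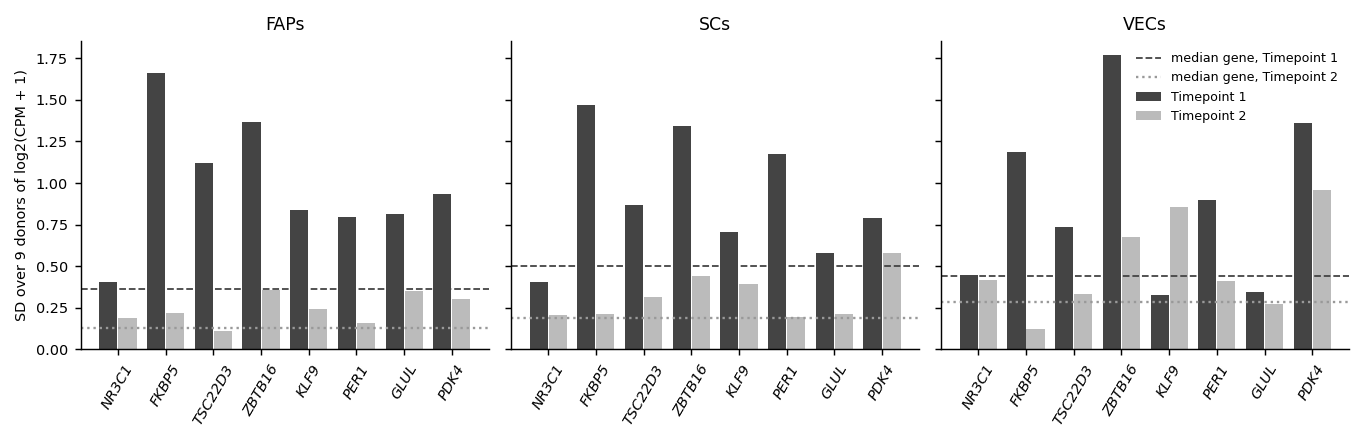
SD over the 9 shared donors of log2(CPM + 1) for each gene (bars, from 0) at Timepoint 1 (dark) and Timepoint 2 (light) in FAPs, SCs and VECs, with the median of all genes over 10 CPM as dashed and dotted lines. FKBP5 falls from 1.66 to 0.22 in FAPs and from 1.19 to 0.12 in VECs, below the median gene there.

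No relation between the levels of a donor in muscle and in culture passed the test. Each member at Timepoint 1 was correlated with itself at Timepoint 2 over the 9 shared donors of the same type, again centred on the age class, in 24 tests chosen after the values were seen. An unadjusted p below 0.05 was reached by 1 of the 24 (KLF9 in VECs, r = -0.65, rho = -0.53, exact permutation p = 0.0493, adjusted 0.789). FKBP5 gave centred r of -0.59, -0.60 and 0.20 in FAPs, SCs and VECs (rho -0.43, -0.38 and 0.017, exact permutation p = 0.225, 0.171 and 0.614, adjusted 0.789 each), and -0.0033, 0.41 and -0.060 without the 2 farthest donors. Donor 4, the calf nearest to the adults in muscle, had the lowest FKBP5 of all 9 donors at Timepoint 2 in FAPs (241 CPM) and in SCs (438 CPM). Between cell types at Timepoint 2 values were not centred on the age class. There none of the 24 correlations passed, and 4 had an unadjusted p below 0.05. The lowest adjusted p was 0.162 (GLUL in FAPs with SCs, r = 0.80, rho = 0.67, exact permutation test over 9 donors). Of the members above 10 CPM in both types, 2 of 6, 0 of 5 and 0 of 5 reached the r of 0.666 that 22.6%, 10.6% and 6.05% of all genes reached. With values centred on the age class, 1 of 6, 0 of 5 and 0 of 5 reached an r of 0.707, as did 21.0%, 9.71% and 5.69% of all genes.

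Calves and adults were compared at Timepoint 2 with edgeR, 5 against 4 donors. No member was called in FAPs, SCs or VECs, and the share of all genes called was 0%, 0% and 0%. In FAPs FKBP5 was 311 ± 65.6 CPM in calves and 307 ± 22.8 CPM in adults (log2FC 0.04 ± 0.16, adjusted p = 0.994), GLUL 191 ± 67.9 and 190 ± 19.5 CPM (0.03 ± 0.25, adjusted p = 0.996) and TSC22D3 48.5 ± 3.28 and 51.3 ± 4.51 CPM (-0.07 ± 0.09, adjusted p = 0.98). The log2FC of the members ranged from -0.33 to 0.17 in FAPs, from -0.58 to 0.15 in SCs and, for 5 tested, from -0.20 to 0.26 in VECs. Unadjusted p below 0.05 was reached by 0 of 8, 2 of 8 and 0 of 5 members tested, and by 5.01%, 10.3% and 3.74% of all genes tested, and DESeq2 called no member either. The pair in SCs was TSC22D3 (98.9 ± 14.6 CPM in calves and 132 ± 23.8 CPM in adults, log2FC -0.41 ± 0.15) and ZBTB16 (35.1 ± 8.83 and 54.1 ± 9.25 CPM, -0.58 ± 0.18), each at an adjusted p of 0.421 by edgeR. That the age difference itself changed between the timepoints was not tested, since the values at Timepoint 1 chose the members.

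FAPs of the sorted FAP cultures and of the unsorted cultures were compared at passages 2, 5 and 8 with 3 donors each. No member was called by edgeR or DESeq2, while edgeR called 0.017%, 1.04% and 0.0201% of all genes. At passage 5 GLUL was 63.8, 69.3 and 75.9 CPM in the FAP cultures and 91.5, 116 and 120 CPM in the unsorted ones, without overlap. Its log2FC of -0.71 ± 0.13 passed on p but not on size (edgeR, adjusted p = 0.0468). At passage 2 GLUL was lower in the FAP cultures without overlap, at 122 to 123 against 133 to 147 CPM (log2FC -0.26 ± 0.085, edgeR, adjusted p = 0.427), and at passage 8 the cultures overlapped (-0.28 ± 0.50, edgeR, adjusted p = 0.999). PDK4 at passage 2 was 0.558 to 1.28 CPM in the FAP cultures and 0.155 to 0.318 CPM in the unsorted ones, without overlap, from 53 and 20 UMIs (log2FC 1.64 ± 0.48, edgeR, adjusted p = 0.388). At passage 5 its cultures overlapped (-0.78 ± 0.51). FKBP5 was 177, 193 and 202 CPM against 217, 257 and 279 CPM at that passage (log2FC -0.46 ± 0.12, edgeR, adjusted p = 0.0827), whereas at passages 2 and 8 its log2FC was 0.076 ± 0.13 and 0.16 ± 0.31 and the cultures overlapped. NR3C1 ran the other way without overlap, at 93.4 to 95.8 CPM against 60.2 to 80.9 CPM (log2FC 0.34 ± 0.12, edgeR, adjusted p = 0.138). DESeq2 gave adjusted p of 0.000153 for GLUL, 0.0109 for FKBP5 and 0.108 for NR3C1, each short of the fold. Unadjusted p below 0.05 was reached by 2 of 8, 4 of 8 and 0 of 7 members tested and by 9.83%, 26% and 4.8% of all genes tested at passages 2, 5 and 8. The share of all genes without overlap between the cultures was not counted. Nothing is therefore read from the members that did not overlap with 3 donors each. The cultures came from different donors and grew on different coatings, fibronectin for unsorted cells and collagen I for FAPs. Sorting, coating and donor therefore cannot be told apart here.

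Cells that the authors' deposited phase calls S or G2M, named cycling here, were compared with cells called G1 of the same type and donor. The main fit held no term for the donor and so did not use this pairing. All p and SE of single members below come from that fit. Lower in cycling cells at an adjusted p below 0.05 were 3 of 8 members in FAPs of Timepoint 2 (9 donors, 18.9% of all genes), 7 of 8 in SCs of Timepoint 2 (9 donors, 19.6%) and 2 of 7 in SCs of Timepoint 3 (8 donors, 6.85%). With the donor as a replicate block these were 7 of 8 (26.5%), 7 of 8 (24.8%) and 6 of 7 (23.8%). Without the filter on low counts, or with at least 30 cells, fewer than 2 members were lower in SCs of Timepoint 3. How the phase was called is not given in the sources used here, so genes of proliferating cells, chosen after the values were seen, were set beside it. MKI67 was 222 ± 14.8 CPM in cycling and 32.6 ± 6.75 CPM in G1 FAPs of Timepoint 2, 294 ± 27.0 and 37.0 ± 23.6 CPM in SCs of Timepoint 2, and 271 ± 135 and 5.04 ± 1.62 CPM in SCs of Timepoint 3. TOP2A, CCNA2, CCNB1 and PLK1 were higher in cycling cells too, all 5 genes without overlap in each comparison, though the calls may have used some of them. Cycling cells also held more UMIs, at means per cell of 25006.5, 21301 and 27674 against 18495, 14607 and 22782 in G1 cells, and the part of this in the result was not tested.

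The log2FC of each member tested was below 0. The median of the members was -0.44, -0.56 and -0.64 in FAPs of Timepoint 2, SCs of Timepoint 2 and SCs of Timepoint 3. That of all genes tested was -0.04, -0.03 and -0.04, and the share of all genes below 0 was not counted. In FAPs PER1 (-0.13 ± 0.11) and NR3C1 (-0.17 ± 0.10) were small against their SE. In SCs of Timepoint 2, PDK4 was 3.88 ± 1.19 CPM in cycling cells and 10.6 ± 4.62 CPM in G1 cells (log2FC -1.61 ± 0.26, edgeR, adjusted p = 1.96e-05) and KLF9 4.66 ± 1.54 and 11.8 ± 3.99 CPM (-1.35 ± 0.20, edgeR, adjusted p = 4.94e-06), each lower in 9 of 9 donors. These 2 of 8 members were called lower, as were 1.74% of all genes. ZBTB16 was 36.5 ± 10.6 and 62.0 ± 14.3 CPM (-0.86 ± 0.15, 9 of 9 donors lower) and TSC22D3 99.6 ± 17.7 and 145 ± 32.5 CPM (-0.63 ± 0.12, 8 of 9 donors). FKBP5 was 545 ± 81.3 and 720 ± 76.8 CPM (-0.47 ± 0.08, 9 of 9 donors).

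The member that missed an adjusted p of 0.05 in SCs of Timepoint 2 was PER1 (-0.23 ± 0.15, edgeR, adjusted p = 0.218). In FAPs of Timepoint 2 no member was called and 1.75% of all genes were called lower. There TSC22D3 was 47.0 ± 4.91 CPM in cycling and 66.0 ± 6.59 CPM in G1 cells (-0.56 ± 0.07, edgeR, adjusted p = 1.31e-06), with no overlap between the 9 donors of each group. The 3 members lower at any size in FAPs were TSC22D3, KLF9 and ZBTB16. In SCs of Timepoint 3 no member was called (1.01% of all genes called lower). TSC22D3 (-0.64 ± 0.16, 8 of 8 donors lower) and ZBTB16 (-0.77 ± 0.26, 8 of 8 donors) were lower at any size. The difference of these effects between FAPs and SCs was not tested.

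**Figure D5:**
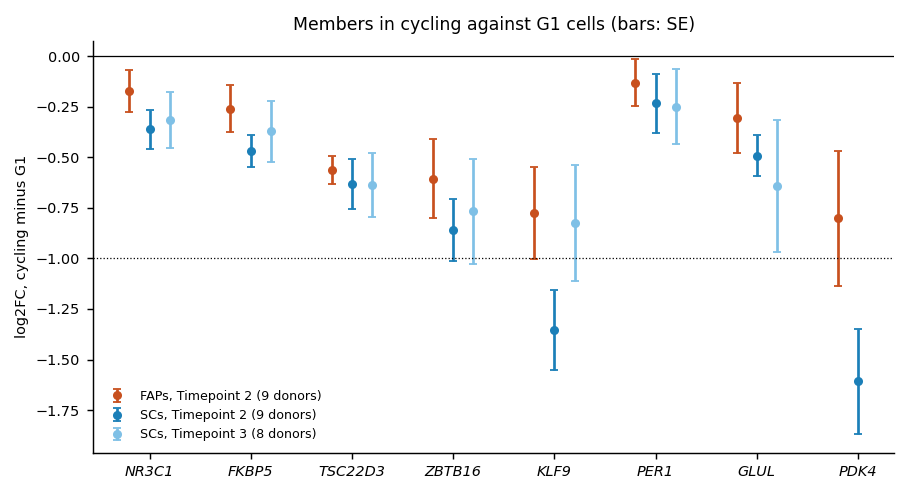
Log2FC of each gene in cycling minus G1 cells (y axis; points, with bars for the SE) in FAPs and SCs of Timepoint 2 and SCs of Timepoint 3; the dotted line marks the fold needed for a call. All points lie below 0, and those of KLF9 (-1.35) and PDK4 (-1.61) in SCs of Timepoint 2 pass the line.

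NR3C1, PDK4 and PER1 were the members most alike in their pattern over cell types and timepoints. Over 19 groups of type and timepoint with at least 3 donors, the mean log2(CPM + 1) of NR3C1 and PDK4 gave a Pearson r of 0.90, the highest of the 28 pairs of members, and PER1 gave 0.80 with PDK4 and 0.78 with NR3C1. TSC22D3 with NR3C1 gave 0.71 and PER1 with KLF9 0.69, and 11 pairs were above 0.5. FKBP5 gave between -0.56 (NR3C1) and 0.18 (GLUL) with the other members. The genes most like each member, of 10605 compared, were PDXK, CPSF3 and PLIN2 for FKBP5 (r = 0.89 to 0.90), ZNF395, MYH1 and PPP3R1 for NR3C1 (0.92 to 0.93) and ZFP36L2, HSD17B11 and PNRC1 for TSC22D3 (0.84 to 0.88). They were SPATS2L, DHX57 and CLCF1 for ZBTB16 (0.85 to 0.87), ZC3H7B, IL15 and RETREG2 for KLF9 (0.89 to 0.91), and KANSL1L, POGZ and INTS8 for PER1 (0.89 to 0.94). For GLUL they were CAT, TDP2 and EPS15 (0.81 to 0.84) and for PDK4 ZNF292, INSR and MYH1 (0.93 to 0.95). MYH1, a myosin gene of muscle fibres, stood beside both NR3C1 and PDK4. The groups share libraries, and these r are given as a description.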

How the data were processed

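The authors counted UMIs with CellRanger 6.0.1 against genome build ARS-UCD1.2 (processing notes), and deposited raw counts per gene and barcode for 5 libraries. Donor, cell type and cell cycle phase came from the authors' deposited cell table, which holds the 36129 cells that passed their quality control; 11 of its columns were not used. Cells had been assigned to donors by demuxlet from array genotypes. How doublets were treated is not given in the sources used here, and no doublet caller was run. Age class came from the paper. No genome of the build was used here, so no coordinates are given. Members and lists were chosen with earlier results of these data known.

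Counts were summed per donor, type and timepoint (at least 10 cells) and tested with edgeR 4.0.16 (quasi-likelihood F test, robust, TMM, filterByExpr, Benjamini-Hochberg over all genes tested), with DESeq2 1.42.0 as an alternative in R 4.3.3. The SE of a log2FC was taken from its size and the root of its F value. Correlations used log2(CPM + 1) and permutation tests, exact for 9 or fewer donors (numpy 2.4.6); those of Timepoint 1 were tested on values centred on the age class, permuted within it, in place of the planned test without centring, which holds the age difference that chose the members. Pathway genes named are the called genes with the 4 largest absolute log2FC per list, type and direction; fibre and dissociation genes are given as sums, and for each member the 3 most similar genes. The alternatives were other size factors, no filter on low counts, at least 30 cells, sums thinned to the lowest UMI total (UMIs per cell and cell numbers not matched), sex of the donor, a replicate block by donor, and leaving out donors. Sums of the same donor come from the same animal and are paired: cycling and G1 sums deviated together (r from 0.10 to 0.84 per donor), Timepoints 1 and 2 hardly (r from -0.14 to 0.19). The fits were tested on simulated data. Intervals cover counting error only.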

Additional observations from a re-analysis of the deposited data

Results flagged for a closer look

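Of 104 groups of 4 to 10 donors examined (1 gene, type and timepoint each), 17 held a donor far from the others by Dixon's ratio, which chance flags in about 1 in 20 groups. Adult donor 6 stood apart in 11 of them. In muscle (Timepoint 1, 10 donors) it was the highest in monocytes and macrophages for FKBP5 (1041 CPM), TSC22D3 (829.1 CPM), PER1 (83.9 CPM) and KLF9 (24.7 CPM, 5 UMIs), in lymphocytes for GLUL (362 CPM), TSC22D3 (1412 CPM) and KLF9 (34.4 CPM, 2 UMIs), in VECs for FKBP5 (192 CPM) and in SMMCs for GLUL (249 CPM). It was the lowest for NR3C1 in VECs (83.5 CPM). At Timepoint 2 it was the highest of 7 donors for GLUL in LECs (446 CPM).

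The other 6 were spread over donors. Donor 2 was lowest for GLUL in VECs of muscle (73.1 CPM) and highest for KLF9 in VECs of Timepoint 2 (6.91 CPM). Donor 9 had 0 UMIs of TSC22D3 in SMMCs of muscle. Donor 10 was highest for ZBTB16 in monocytes and macrophages (7.39 CPM, 2 UMIs), donor 4 for KLF9 in SMMCs of Timepoint 2 (4.01 CPM, 6 UMIs) and donor 5 for ZBTB16 in FAPs of Timepoint 2 (32.3 CPM, 556 UMIs).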

How the results depend on the processing

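Counts of calls that moved by over 1.5 times were these; the cause was not tested. With the donor as a replicate block (paired by animal), 7 members were lower in cycling FAPs of Timepoint 2 and 6 in SCs of Timepoint 3, in place of 3 and 2, and for Timepoint 2 against 1 the block gave 2 induced genes higher in FAPs and 2 receptor genes lower in SCs. Without the filter on low counts, or with at least 30 cells, 1 member was lower in cycling SCs of Timepoint 3. Without the filter, induced genes called higher were 3 in FAPs, 5 in SCs and 2 in VECs, induced genes lower in VECs 17, repressed genes higher 6 in SCs and 6 in VECs, repressed genes lower in SCs 3, and receptor genes in SCs 2 higher and 2 lower. With every sum thinned to the lowest UMI total, FAPs gave 0 receptor genes lower, 7 induced genes lower and 2 repressed genes higher, SCs 1 induced gene higher, 1 repressed gene higher and 0 lower, and VECs 1 repressed gene lower.

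Of the 24 donor correlations between types at Timepoint 1, 8 passed centred on age class. Without centring, where the age difference that chose the members enters, 13 passed, of which 7 are among the 8; this count was 4 without the 2 farthest donors and 9 to 15 without single donors. Centred, leaving out single donors gave 0 to 11. GLUL in SCs with VECs, 1 of the 13, had an r of 0.42 without donor 2. Some r without centring changed sign. Without the 2 farthest donors it was -0.16 for GLUL and -0.077 for KLF9 in FAPs with VECs, -0.73 for NR3C1 in FAPs with VECs and -0.13 in SCs with VECs, and -0.28 for KLF9 and -0.35 for PDK4 in SCs with VECs, where KLF9 was -0.042 centred on age. Leaving out single donors (added after seeing the data) gave -0.16 to 0.50 (GLUL), -0.050 to 0.37 (KLF9) and -0.43 to 0.68 (NR3C1) in FAPs with VECs, and -0.18 to 0.36 (KLF9), -0.53 to 0.82 (NR3C1) and -0.26 to 0.39 (PDK4) in SCs with VECs. The log2FC of calves against adults in FAPs of Timepoint 2 ran from -0.10 to 0.12 for FKBP5 and from -0.22 to 0.15 for GLUL. The counts of members called between age classes at Timepoint 2 and between cultures stayed at 0 under every alternative run for them. Timepoint 1 had the fewest UMIs per cell.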
